A study of Mus musculus with 10 samples.

Results

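The cytosolic ribosomal protein genes were followed in microglia and in the other CD45+ cells of the mouse brain. They were taken as every gene of the count matrix with a symbol made of Rpl or Rps and a number, with or without the suffixes a, x, y, l or p, together with Rpsa, Rplp0, Rplp1 and Rplp2. Rps27a, pseudogenes and the Rps6k kinase genes were left out. This gave 83 of the 31053 genes, of which 52 encode proteins of the large subunit, among them 3 of its stalk, and 31 encode proteins of the small subunit.

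The study asked whether the Nlrp3 inflammasome shapes the response of microglia to amyloid. CD45+ cells were sorted from whole brains and profiled by droplet single-cell RNA sequencing that reads the 3′ end of transcripts and counts unique molecular identifiers (UMIs, tags of single captured RNA molecules). WT mice and Nlrp3KO mice, which lack Nlrp3 in all cells, were profiled at 3, 6 and 9 months. APP/PS1 mice, which carry transgenes for mutant amyloid precursor protein and presenilin, and Nlrp3KO APP/PS1 mice were profiled at 3 and 9 months. WT and Nlrp3KO mice are called non-diseased here. Each of the 10 libraries held the pooled cells of 3 littermates, 2 males and 1 female, and all cells were dissociated with actinomycin D, which blocks new transcription. The promoter of the transgenes was not given in the sources used here. Each genotype thus had 1 library per age. Age therefore cannot be told apart from any batch that went with it, nor can genotype within an age be told apart from differences between single libraries.

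A cytosolic ribosome is built from ribosomal RNAs and a full set of ribosomal proteins, and the small subunit decodes the mRNA while the large subunit joins the amino acids. The mRNAs of ribosomal proteins begin with a tract of pyrimidines, the 5′ terminal oligopyrimidine or TOP motif, through which the mTORC1 kinase and the RNA-binding protein Larp1 control their translation together. Because these mRNAs are short, stable and abundant, they make up a large part of any transcriptome, and resting cells such as microglia hold fewer of them than activated lymphocytes.

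Many of these mRNAs have near-identical copies in the genome, which limits what a 3′ read can tell. Of the 83 genes, 53 are marked here as sharing sequence, since within the last 500 bases of the transcript at least 50% of their 31-base stretches recurred in another gene model of GENCODE (mouse mm10) or since they are known for near-identical copies, as are Rps28, Rps29 and Rpl41. For 15 of them such a model was also in the count matrix, and the other 30 genes shared less. Only 1 annotated transcript per member was searched, and the counts depend on this choice. It was long in some members, as in Rps15a (5130 bases, 130 codons) and Rps20 (3706 bases, 119 codons). Both had 0% shared, and the ends of their other transcripts were not searched. Rpl41, the shortest member with 25 codons, is shown because its whole coding sequence recurs in the gene model Gm10076, counted as a gene of its own. Rpl41 lies on chr10:128548114-128549305 on the minus strand and Gm10076 on chr14:105681828-105682211 on the plus strand, and the 78 coding bases of both were identical, with 0 mismatches.
Rpl41 and Gm10076: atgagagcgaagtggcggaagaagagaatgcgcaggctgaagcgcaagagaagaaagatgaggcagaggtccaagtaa

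Rps27 and the retrotransposed copy Rps27rt, which lies on chr9:114982366-114982739, likewise shared an identical run of 91 bases, so reads from this stretch could not be assigned to 1 of them.

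The start sites of 64 of the 83 genes were found in RefSeq (GRCm38.p6), and each was read from 250 bases before to 50 bases after the annotated start. A tract of C followed by pyrimidines, at least 5 letters long and beginning within 5 bases of the start, was found in 42.2% of the 64 genes and in 18.6% of 19336 other genes. The motif CCGGAAG, searched on both strands, occurred in 37.5% of these promoters against 11.1% of the others, CTTTCC in 51.6% against 26.4%, GGGCGG in 60.9% against 43.7% and TATAAA in 9.38% against 13.3%. A match describes the letters and no factor. The stretches from 40 bases before to 20 bases after the start are shown for Rpl38, Rps21 and Rps27, which hold the tract (capitals) and were among the 10 members that rose most with age, for Rpl7a, which holds the longest of these 4 tracts and rose most with amyloid within disease-associated microglia, and for Rps28 and Rpl27, in which no such tract was found at the annotated start. The RefSeq start differed from that of GENCODE by 53 bases in Rpl27, 43 in Rpl7a and 32 in Rpl38, and by 0 to 3 bases in the other 3 genes.
Rpl38, chr11:114668540-114668599, plus strand: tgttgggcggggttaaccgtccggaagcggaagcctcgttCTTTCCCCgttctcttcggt
Rps21, chr2:180257339-180257398, plus strand: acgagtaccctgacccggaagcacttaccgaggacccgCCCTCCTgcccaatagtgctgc
Rps27, chr3:90213629-90213688, minus strand: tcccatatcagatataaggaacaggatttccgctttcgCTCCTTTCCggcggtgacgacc
Rpl7a, chr2:26910767-26910826, plus strand: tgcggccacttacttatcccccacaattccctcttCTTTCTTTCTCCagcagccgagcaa
Rps28, chr17:33824543-33824602, minus strand: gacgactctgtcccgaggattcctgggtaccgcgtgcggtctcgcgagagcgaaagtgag
Rpl27, chr11:101442205-101442264, plus strand: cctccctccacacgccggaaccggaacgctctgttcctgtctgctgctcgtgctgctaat

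The libraries held 45472 cells, of which 40547 were microglia in the deposited annotation, with 1755 to 8208 microglia, 9357431 to 35107144 microglial UMIs and a median of 3978 to 5985 UMIs per microglial cell in each library. Nlrp3 was at 34.4 to 53.7 CPM (UMIs of a gene relative to all UMIs, scaled as counts per 1000000) in the 5 libraries with intact Nlrp3 and at 0 UMIs in the 5 libraries without it, which allows at most 0.0855 to 0.321 CPM in a library (3 counts, counting error only). The summed level of the microglial markers was 22382 to 26508 CPM in these cells, against 4.57 to 14.1 CPM for the border macrophage list and 0.495 to 3.08 CPM for the T cell list. Of 45225 distinct barcodes, 246 occurred in more than 1 library.

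Over all microglia, the members took 8.70% of the UMIs, and 37 of the 100 genes with the highest counts were members. Each transcript gives 1 tag at its 3′ end, so CPM do not scale with transcript length. Levels of members that share sequence, Rplp1, Rps29, Rpl13 and Rps12 among those named next, also depend on how many reads could be assigned to 1 gene, so the order of levels holds for the counts as deposited. Rplp1, an acidic protein of the stalk that recruits elongation factors, had the highest level of all members with 3511 CPM. Rps29, a short zinc-binding protein of the small subunit, followed with 3464 CPM, then Rps24 with 2011 CPM, Rpl13 with 1871 CPM and Rps12 with 1783 CPM. The other stalk proteins Rplp0 and Rplp2 stood at 1098 and 1131 CPM, and Rpsa, which is also known as the laminin receptor, at 810 CPM. Rps6, the substrate of the S6 kinases, stood at 739 CPM.

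Paralogs that are used in few tissues were near the bottom of this order. Rpl10l and Rpl3l, which in mice serve the testis and striated muscle, had 0 UMIs among 194265512 microglial UMIs, which allows at most 0.0154 CPM, whereas their common partners Rpl10 and Rpl3 stood at 1239 and 891 CPM. Rpl39l, a partner of Rpl39 in male germ cells, had 709 UMIs or 3.65 CPM. Rpl7l1, a relative of Rpl7 that acts in ribosome assembly, stood at 102 CPM, Rps27l, a p53 target, at 142 CPM and Rpl22l1 at 161 CPM, against 654 CPM of its partner Rpl22. In all, 80 members had at least 1000 UMIs in microglia, and these 80 were used wherever ratios of single genes are given without a test.

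The share of the members in all microglial UMIs was higher at each later age. It was 7.98%, 9.49% and 10.2% in WT microglia at 3, 6 and 9 months, and 7.85%, 8.66% and 9.42% in Nlrp3KO microglia. It was 8.38% and 10.8% in APP/PS1 microglia at 3 and 9 months, and 7.82% and 11.1% in Nlrp3KO APP/PS1 microglia. The 4 libraries of 9 months all lay above the 4 libraries of 3 months, with a mean difference of 2.38 percentage points (SD 0.708, 4 pairs of equal genotype). Other values moved with this split without overlap, since the median percent of mitochondrial UMIs per cell was 2.35% to 3.16% in the libraries of 3 months and 3.39% to 3.67% in those of 9 months, and the microglial marker list summed to 25284 to 26508 CPM and 22382 to 24997 CPM. Their part in the result was not tested. A share is relative to all other mRNAs of the same cells, so more ribosomal mRNA and less of other mRNA cannot be told apart. The mix of microglial states also differed with age. Disease-associated microglia were 24 of 3083 microglia in the APP/PS1 library of 3 months and 253 of 2167 in that of 9 months. In homeostatic microglia alone the mean difference between 9 and 3 months was 1.70 percentage points (SD 0.365, 4 of 4 pairs higher). The part of the mix of states was not tested. Between genotypes the differences were smaller than their spread over all pairs, at -0.399 percentage points (SD 0.483, 5 pairs, 1 higher) for Nlrp3KO minus intact Nlrp3 and 0.668 percentage points (SD 0.732, 4 pairs, 3 higher) for APP/PS1 minus non-diseased. Single pairs weighed on this, since the Nlrp3 difference was -0.576 (SD 0.321, 0 of 4 higher) without the APP/PS1 pair of 9 months. The APP/PS1 difference was 0.898 (SD 0.697, 3 of 3 higher) without the Nlrp3KO pair of 3 months and 0.325 (SD 0.317) without the Nlrp3KO pair of 9 months. Within single states, the Nlrp3KO library had the lower share in all 5 pairs for the interferon-responsive (-0.460, SD 0.291), transitioning (-0.540, SD 0.485) and immediate early gene (-0.620, SD 0.731) microglia. In homeostatic and proliferating microglia it was higher in 1 of 5 pairs (-0.405, SD 0.408, and -0.370, SD 0.771) and in disease-associated microglia in 2 of 5 (-0.0816, SD 0.863). No test was made on the summed shares.

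**Figure D1:**
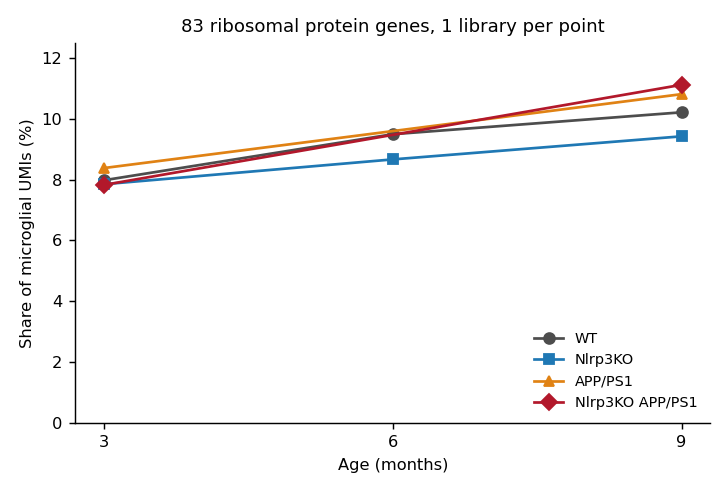
Percent of all microglial UMIs on the 83 ribosomal protein genes (vertical axis, from 0) against age in months (horizontal axis), 1 point per library and 1 line per genotype; the APP/PS1 lines have no point at 6 months. The 3-month libraries lie between 7.82% and 8.38% and the 9-month libraries between 9.42% and 11.1%.

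The comparison of 9 with 3 months showed which of these genes carried the difference. Of 81 members tested in microglia, 65 were higher at 9 months, where 12.6% of all genes were called higher, and 0 were lower, where 10.6% of all genes were called lower (edgeR quasi-likelihood test over 4 pairs, adjusted p under 0.05). DESeq2 called 69 members, and 0 were lower at an unadjusted p under 0.05. Without the APP/PS1 pair, 26 members were called. For DESeq2 and for this omission the shares of all genes called are not given here, so these counts have no background beside them. The median log2 fold change of the 81 members was 0.37, against 0.00 over all genes, and short proteins led. Rps28, Rpl38, Rps29, Rpl36al, Rpl41, Rps21, Rpl27, Rpl39, Rps27 and Rpl37a had the 10 largest changes, with log2 fold changes from 1.40 to 0.91. Of these, Rps28, Rps29, Rpl41, Rpl38, Rps27, Rpl27 and Rpl36al are marked as sharing sequence with other gene models. Rps21, Rpl39 and Rpl37a are not marked, but 45.3%, 27.0% and 46.6% of their 31-base stretches recurred in other models. Rps29, at 39.2%, is marked only because its copies are known.

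Rps28, a small subunit protein near the mRNA exit, stood at 496, 516, 754 and 357 CPM in WT, Nlrp3KO, APP/PS1 and Nlrp3KO APP/PS1 microglia of 3 months. Values of 1435 and 1093 CPM were found in WT and Nlrp3KO microglia of 6 months, and of 1316, 1036, 1481 and 1308 CPM in the 9-month libraries, in the same order. The 4 oldest libraries lay above the 4 youngest, and both 6-month libraries lay at the level of the oldest. The log2 fold change between 9 and 3 months was 1.40 (SE 0.159, adjusted p = 0.0035, edgeR), or 2.64-fold. Rpl38, known for its part in the translation of homeobox mRNAs, had 517, 478, 699 and 361 CPM in the 3-month libraries, 1001 and 807 CPM in those of 6 months and 1015, 1138, 1115 and 1363 CPM in those of 9 months, and its log2 fold change was 1.29. Rps29 had 2889, 2562, 3705 and 1826 CPM in the youngest libraries, 4526 and 3459 CPM in the middle ones and 4413, 5714, 4523 and 6370 CPM in the oldest, with a log2 fold change of 1.05. In each of these genes, the Nlrp3KO APP/PS1 library of 3 months was the lowest of the 10 and the APP/PS1 library of 3 months the highest of its age.

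Rpl36al, a paralog of Rpl36a, had the smallest p of all members, with 127, 134, 165 and 121 CPM at 3 months and 283, 210, 312 and 236 CPM at 9 months. Its log2 fold change was 1.01 (SE 0.0850, adjusted p = 0.00149, edgeR), and that of Rpl36a was 0.75. Rpl41, a peptide at the bridge between the subunits, had 849, 899, 1134 and 684 CPM in the libraries of 3 months and 1694, 1265, 1969 and 1755 CPM at 9 months, with a log2 fold change of 0.996. Rpl39, which lines the exit tunnel, had 1238, 1184, 1542 and 958 CPM in the libraries of 3 months and 2138, 1972, 2257 and 2374 CPM at 9 months. In all these genes the groups of 3 and 9 months did not overlap.

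Members of other roles moved less. The stalk proteins Rplp0, Rplp1 and Rplp2 rose by log2 fold changes of 0.41, 0.42 and 0.48, Rpsa by 0.41 and Rps6 by 0.23. Rpl6, with 296 codons, rose by 0.69. Among the paralogs, Rpl22l1 rose by 0.51 beside 0.46 of Rpl22, and Rps27l rose by 0.38 beside 0.92 of Rps27. The 16 members that were not called included Rpl39l (0.01), Rpl15 (0.04), Rpl7l1 (0.05), Rpl7a (0.11) and Rpl4 (0.12). They also included Rpl35, whose log2 fold change of 0.71 (SE 0.213) was accompanied by an adjusted p of 0.0517 (edgeR), with 3 of 4 pairs higher.

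The change was larger in members that encode short proteins. Of members of up to 100 codons, 10 of 11 were higher, with a median log2 fold change of 0.93, and of members of 100 to 150, 150 to 250 and over 250 codons, 25 of 31, 22 of 27 and 8 of 12 were higher, with medians of 0.43, 0.28 and 0.33. Over the 81 members, coding length and log2 fold change had a Pearson r of -0.506 and a Spearman rho of -0.553, given as a description since the genes share their libraries. Other genes of up to 100 codons were also called higher more often than long ones, at 40.8% (median log2 fold change 0.21), against 26.4%, 15.6% and 8.79% in the longer classes. Over 6153 other genes of up to 500 codons the correlation was -0.141 (Spearman rho -0.184). Of 249 other genes over 400 CPM, which are as abundant as most members, 56 or 22.5% were called higher and 33 lower.

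**Figure D2:**
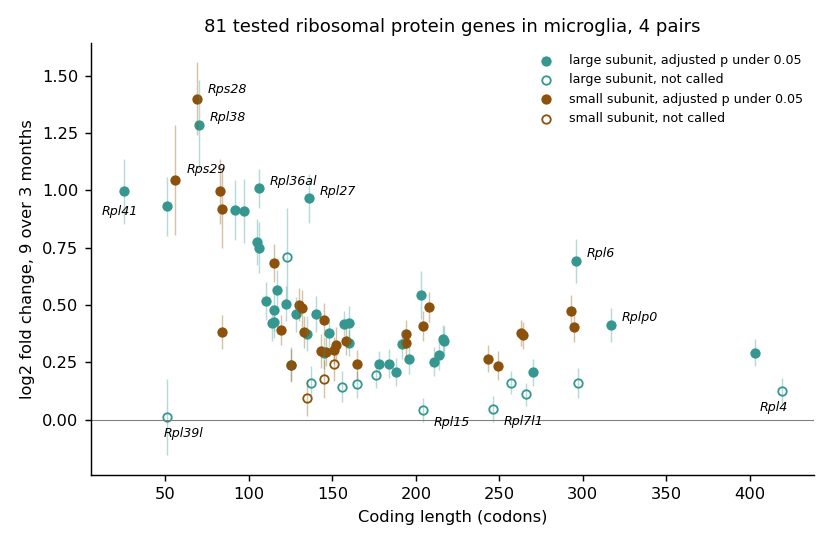
log2 fold change between 9 and 3 months in microglia (vertical axis) against coding length in codons (horizontal axis) for the 81 tested ribosomal protein genes; bars are standard errors, colours give the subunit and filled points have an adjusted p under 0.05. Of the 10 called genes of up to 100 codons, Rps27l lies at 0.38 and the others lie at 0.91 or above, and Rpl39l, Rpl15, Rpl7l1 and Rpl4 lie near 0.

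The order of the ages was checked without a test. In 45 of the 81 members, or 55.6%, every library of 9 months lay above every library of 3 months, which was so for 8.14% of all genes tested. In 47 members, or 58.0%, the level rose from 3 to 6 to 9 months in both WT and Nlrp3KO microglia, against 6.52% of all genes.

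Higher levels at 9 months were also found in single microglial states and in other cells. In homeostatic microglia (HM) alone, 55 of 81 members were higher at 9 months (background 8.62%), with a median log2 fold change of 0.26. In the interferon-responsive (IRM), immediate early gene (IEG), transitioning (TM) and proliferating (PM) states, 58 (4.1%), 38 (2.9%), 33 (3.2%) and 14 (3.91%) of 80 were higher, where the percentages in brackets are those of all genes called higher. In T cells, 31 of 80 were higher (1.54%), in border macrophages 14 (1.55%), and in all CD45+ cells outside microglia 52 (6.34%). The median log2 fold change was 0.30 in T cells and 0.10 in border macrophages, where 56 of 80 members were above 0 and the Nlrp3KO APP/PS1 library of 9 months was the lowest of the 10 for 32 members. In disease-associated microglia (DAM), 15 of 80 members were higher (2.1%) and 2 were lower, a share near that of all genes called lower (2.85%). The 2 were Rpl7a, at a log2 fold change of -0.61, and Rpl12, at -0.48. The power of these tests differs with the number of cells, and the differences between the cell groups were not tested.

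Rps28 and Rps29 had a like library pattern in microglia and in T cells, which came from the same pools and sequencing libraries. Rps28 in T cells had 1539, 1895, 2886 and 1192 CPM in the 4 libraries of 3 months, 4355 and 3768 CPM in those of 6 months and 4087, 3304, 4774 and 3813 CPM in those of 9 months. As in microglia, the Nlrp3KO APP/PS1 library of 3 months was lowest and the APP/PS1 library of 3 months highest of its age. Rps29 in T cells was lowest in the same library with 3482 CPM and highest in the Nlrp3KO APP/PS1 library of 9 months with 9290 CPM. The parts of age, of any batch that went with it and of single libraries in the result cannot be told apart.

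**Figure D3:**
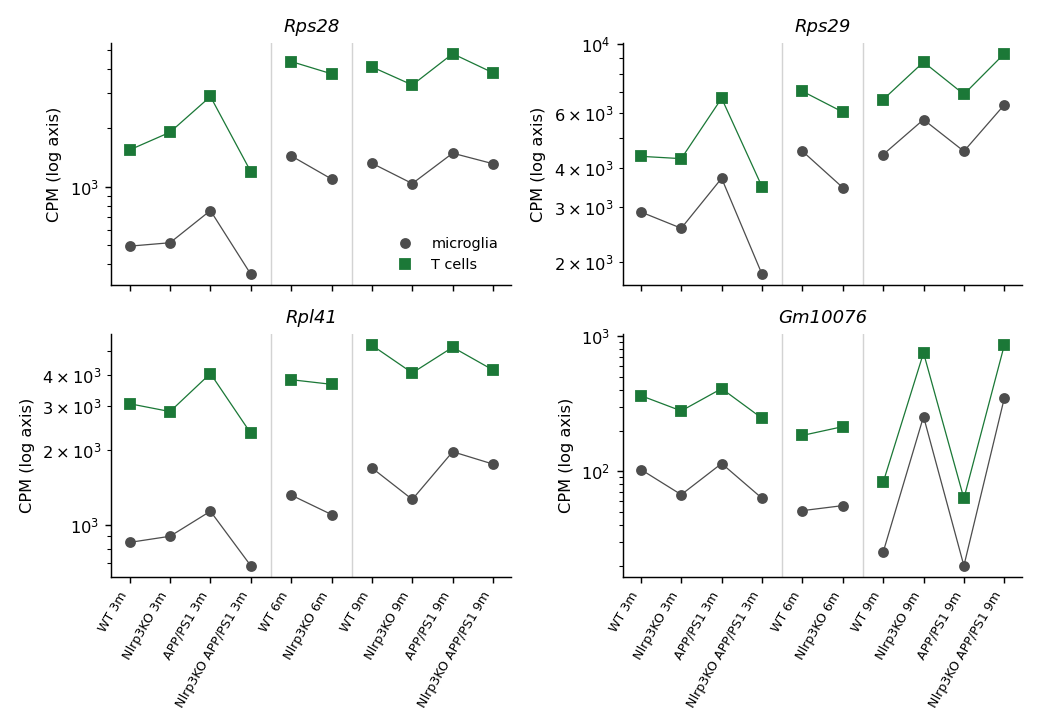
CPM (vertical axes, logarithmic) of Rps28, Rps29, Rpl41 and the copy Gm10076 in the 10 libraries, in microglia (circles) and T cells (squares); lines join the libraries of 1 age and grey lines part the ages. Over most libraries both cell types rise and fall alike, with Rps28 in the Nlrp3KO APP/PS1 library of 3 months at 357 CPM in microglia and 1192 CPM in T cells.

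Genes that work with the ribosome were read from lists in the same fit. Of 16 TOP mRNAs and elongation factors, 8 were higher at 9 months and 0 lower, among them Eef1a1, which brings aminoacyl-tRNA to the ribosome (log2 fold change 0.45), Pabpc1, which binds poly(A) tails (0.35), and Tpt1 (0.31), and the median of the list was 0.18. The counts of the other lists stand beside 12.6% of all genes called higher and 10.6% called lower. Of 29 genes of ribosome biogenesis, 3 were higher (Polr1a, Npm1 and Nop10) and 2 lower (Ncl and Ubtf), with a median of 0.01. Of 77 mitochondrial ribosomal protein genes, 15 were higher and 2 lower, with a median of 0.05. Of 12 genes of translation control, 0 were called higher and 1 lower, 3 being lower at an unadjusted p under 0.05. The 1 was Larp1, with a log2 fold change of -0.66 (SE 0.0542, adjusted p = 0.00147, edgeR).

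The loss of Nlrp3 was compared over 5 pairs of equal age and background. None of the 81 members was called, as 4 of 12048 genes were (0.0332%), and DESeq2 called 1 member, Rpl27, lower. At an unadjusted p under 0.05, 10 members were lower (2.19% of all genes) and 0 higher. The median log2 fold change of the members was -0.04, and 16 of 81 were above 0. Rpl27 had the largest change with -0.38 (SE 0.0929, adjusted p = 0.899, edgeR). It stood at 191 CPM in WT and 194 CPM in Nlrp3KO microglia of 3 months, at 271 and 179 CPM in the APP/PS1 pair of 3 months, at 339 and 292 CPM in the pair of 6 months, at 428 and 273 CPM in the non-diseased pair of 9 months and at 500 and 353 CPM in the APP/PS1 pair of 9 months. Rpl27 was thus lower without Nlrp3 in 4 of 5 pairs and level in the other. Rps28 (-0.38), Rpl41 (-0.29) and Rpl36al (-0.28) followed, each lower in 4 of 5 pairs.

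The effect of Nlrp3 loss was also compared between ages, at 9 months against 3 and 6 months. In all microglia 0 members were called (0.783% of all genes) and 7 were higher at an unadjusted p under 0.05 (8.75% of all genes), a share near the background. DESeq2 called 1 member. In TM alone, 3 of 80 members were called higher (0.646% of all genes), namely Rps29, Rpl38 and Rps27. Rps29 in TM was at 4643 CPM in WT and 4101 CPM in Nlrp3KO cells of 3 months, at 5599 and 2820 CPM in the APP/PS1 pair of 3 months, and at 6538 and 5118 CPM in the pair of 6 months. At 9 months it was at 6293 and 8680 CPM in the non-diseased pair and at 6221 and 8778 CPM in the APP/PS1 pair. The order of the genotypes turned at 9 months, and the difference between the effects was 0.99 on the log2 scale (SE 0.149, adjusted p = 0.000218, edgeR). For Rpl38 and Rps27 it was 0.62 (adjusted p = 0.0437) and 0.61 (adjusted p = 0.0479). A like turn was found in other cells, as Rps29 in T cells was at 7042 CPM in WT and 6041 CPM in Nlrp3KO mice of 6 months, but at 6624 and 8736 CPM in the non-diseased pair and 6886 and 9290 CPM in the APP/PS1 pair of 9 months. In border macrophages the 9-month libraries without Nlrp3 were likewise the highest of the 10 for Rps29, at 9772 and 9109 CPM. In all microglia, Rps29 had a like difference of 0.99 with an SE of 0.215 and an adjusted p of 0.11 (edgeR).

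The copy Gm10076 differed far more than Rpl41 in the same libraries. In microglia it was at 103, 67.1, 114 and 63.2 CPM in the libraries of 3 months and at 51.2 and 55.7 CPM in those of 6 months. In the oldest libraries it was at 25.2 CPM in WT, 254 CPM in Nlrp3KO, 20.03 CPM in APP/PS1 and 347 CPM in Nlrp3KO APP/PS1 microglia. Both Nlrp3KO libraries of 9 months thus lay above the other 8, and T cells showed the same order, with 82.7, 751, 63.0 and 855 CPM. The difference of the Nlrp3 effects between ages was 4.21 on the log2 scale for Gm10076 (adjusted p = 0.000888), against 0.04 for Rpl41 (adjusted p = 0.975, both edgeR).

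Amyloid was compared over 4 pairs of equal age and Nlrp3 genotype. Over all microglia, 0 of 81 members were called, as 5 of 12007 genes were (0.0416%), and DESeq2 called 0 members. At an unadjusted p under 0.05, 9 were higher (4.94% of all genes) and 0 lower. The median log2 fold change was 0.11, and 80 of 81 members were above 0. Rpl10a and Rpl23a, both of the large subunit, had log2 fold changes of 0.22 and 0.21 and were higher in 4 of 4 pairs (adjusted p = 0.582 and 0.594, edgeR). In HM alone the median was 0.01, and in microglia without DAM it was 0.04. It was -0.03 in both TM and IRM, where 21 and 19 of 80 members were above 0. In IEG and PM it was 0.06 and 0.16, with 66 and 78 of 80 members above 0. In T cells, 49 of 80 members were higher at an unadjusted p under 0.05 (3.63% of all genes), with a median log2 fold change of 0.20, but 0 were called after adjustment. The Nlrp3 effect did not differ detectably between APP/PS1 and non-diseased microglia, since 0 members and 0 of 12383 genes were called (0%), and DESeq2 called 0 members. At an unadjusted p under 0.05, 19 members were higher there (1.31% of all genes), with an adjusted p of 1 (edgeR). The difference was 0.81 (SE 0.335) in Rpl39l, which has few counts, and 0.18 to 0.25 in the others, with the smallest p in Rpl19 (0.25), Rpl7 (0.23) and Rplp0 (0.23).

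Within DAM, the members differed with amyloid. Their share of the UMIs in DAM was 9.68%, 10.2% and 11.8% in WT and 9.13%, 10.6% and 10.5% in Nlrp3KO mice at 3, 6 and 9 months. It was 13.5% and 14.2% in APP/PS1 and 13.5% and 15.2% in Nlrp3KO APP/PS1 mice at 3 and 9 months. The groups did not overlap, and over the 4 pairs the share exceeded its partner by a mean of 3.83 percentage points (SD 0.979), against 0.154 (SD 0.403) in HM. Of 80 members tested, 72 were higher in APP/PS1 (6.33% of all genes were called higher) and 0 lower, also at an unadjusted p under 0.05. DESeq2 called 67, and the median log2 fold change was 0.58 against -0.03 over all genes. With 1 pair left out, 25 were called without the WT pair of 3 months, 44 without the Nlrp3KO pair of 3 months, 42 without the Nlrp3KO pair of 9 months and 75 without the WT pair of 9 months. The shares of all genes called with DESeq2 or with 1 pair left out are not given here. The effect of APP/PS1 in DAM minus that in HM was above 0 and called for 78 of 81 members (5.34% of all genes), with a median of 0.63. Both DAM comparisons were added after values of these data had been seen.

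The DAM counts rest on few cells, 24 to 253 per library and 901 in all. The cells that carry the label DAM in non-diseased libraries held less of 5 of 6 DAM markers, without overlap. Cst7 was at 74.0 to 205 CPM against 848 to 2785 CPM in APP/PS1 libraries, Lpl at 6.83 to 96.7 against 348 to 784 CPM, Itgax at 6.83 to 43.5 against 56.6 to 93.9 CPM, Csf1 at 6.21 to 49.0 against 65.7 to 141 CPM and Apoe at 803 to 4392 against 4943 to 12968 CPM. Spp1 overlapped, at 12.4 to 750 CPM against 104 to 382 CPM. Of the homeostatic markers, Tmem119 was higher in these cells, at 1392 to 1838 against 618 to 1219 CPM, as was Sall1, at 254 to 385 against 180 to 246 CPM. The part of such cells in the result was not tested. In the annotation of all CD45+ cells, which gives the label DAM to 1416 microglia, of which 788 are shared, 8 of 80 members were higher, where 1.65% of all genes were.

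Rpl7a had the largest change in DAM. It stood at 342 and 267 CPM in WT and 622 and 285 CPM in Nlrp3KO cells of 3 and 9 months, and at 747 and 511 CPM in APP/PS1 and 985 and 655 CPM in Nlrp3KO APP/PS1 cells of the same ages. Each APP/PS1 library lay above its partner, whereas the groups overlapped, and the log2 fold change was 1.13 (SE 0.149, adjusted p = 4.6e-05, edgeR). Rpl12, which forms the base of the stalk, was at 1106 and 759 CPM in WT, 1049 and 672 CPM in Nlrp3KO, 1648 and 1225 CPM in APP/PS1 and 2024 and 1371 CPM in Nlrp3KO APP/PS1 cells of 3 and 9 months, a log2 fold change of 0.96. Both genes were lower at 9 than at 3 months in DAM of every genotype, as given above.

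Rps28 in DAM rose with both age and amyloid. It was at 609 and 1329 CPM in WT, 529 and 1096 CPM in Nlrp3KO, 1419 and 2067 CPM in APP/PS1 and 784 and 1942 CPM in Nlrp3KO APP/PS1 cells of 3 and 9 months, and the log2 fold change with amyloid was 0.95. Rpl22l1 (0.98), Rps2 (0.92), Rplp0 (0.86), Rps21 (0.84), Rpl35 (0.82) and Rpl10a (0.81) were also among the 10 largest changes. The 8 members that were not called had positive values too, from 0.09 in Rpl7l1 to 0.55 in Rpl13a, with Rps27 at 0.35 and Rps27l at 0.29. Of the other lists, 8 of 16 TOP mRNAs and elongation factors were higher in DAM with amyloid, among them Nap1l1 (1.21), Eif3f (0.81) and Eef1b2 (0.71), where 6.33% of all genes were. The counts were 1 of 19 for biogenesis genes (Npm1), 1 of 56 for mitochondrial ribosomal protein genes and 0 of 8 for genes of translation control. In the last list 1 gene was higher and 2 were lower at an unadjusted p under 0.05, with a median log2 fold change of -0.30. The differences between lists were not tested.

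**Figure D4:**
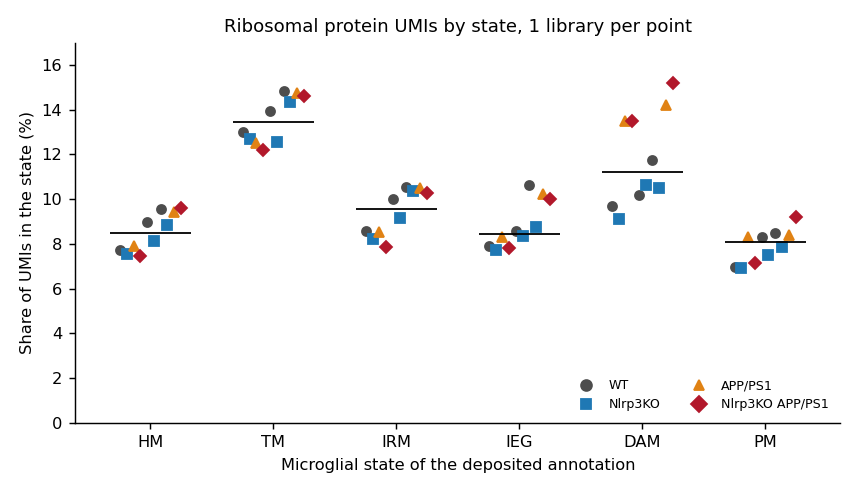
Percent of UMIs on the 83 ribosomal protein genes (vertical axis, from 0) in each microglial state of the deposited annotation (horizontal axis), 1 point per library. The TM points lie between 12.2% and 14.8%, the HM points between 7.44% and 9.58%, and the DAM points of APP/PS1 libraries between 13.5% and 15.2%.

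The states themselves were compared as a description, since they were clustered from the same counts. In HM the members took 7.44% to 9.58% of the UMIs over the 10 libraries (median 8.51%). The median was 13.5% in TM, 11.2% in DAM, 9.58% in IRM, 8.47% in IEG and 8.07% in PM. TM lay above HM by 5.02 percentage points (SD 0.341, 10 of 10 libraries), DAM by 3.31 (SD 1.95, 10 of 10), IRM by 0.884 (SD 0.301, 10 of 10) and IEG by 0.308 (SD 0.422, 8 of 10), and PM lay below HM by 0.611 (value -0.611, SD 0.440, 9 of 10 lower). Single TM and HM cells were not fully apart, since 60.1% to 77.2% of TM cells of a library exceeded the 95th percentile of its HM cells. Within HM, cells grouped by UMI count into 4 classes of equal size had median shares of 8.46%, 8.48%, 8.53% and 8.52%.

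In TM, 79 of 80 members lay above HM in all 10 libraries, which was so for 4.59% of all genes. TM was clustered from the same counts, so high levels of the members may be part of how this state was drawn. The values describe the state and do not test it. Rpsa had the largest log2 ratio of the means (0.88), with 1152 to 1458 CPM in TM and 650 to 818 CPM in HM, so that no library of one state overlapped the other. Rpl32 (0.85), Rps19 (0.84), Rps28 (0.82), Rpl23 (0.80), Rps18 (0.79) and Rps12 (0.78) were also high, and the median over the members was 0.66 against -0.21 over all genes. Rpl7l1 was the exception, with a log2 ratio of -0.28 and a lower level in 10 of 10 libraries. Rps27l (0.19) and Rpl36al (0.21) were raised least, and Rpl4 (0.49), Rpl7a (0.53), Rpl8 (0.54) and Rplp1 (0.55) were also near the low end.

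DAM, IRM and IEG had partly other leading members. In DAM, 64 of 80 lay above HM in all libraries (2.35% of all genes), led by Rpl41 (0.81), Rpsa (0.78), Rpl10a (0.72), Rpl32 (0.68) and Rps19 (0.66), whereas Rpl7l1 was at -0.49. Rpl7a had a ratio of -0.00, but it lay below HM in some libraries and above it in others. It was at 267 CPM in DAM and 587 CPM in HM of WT mice of 9 months. In Nlrp3KO APP/PS1 mice of 3 months it was at 985 and 571 CPM. In IRM, 60 of 80 lay above HM in all libraries (4.85% of all genes), with log2 ratios of at most 0.30, reached by Rps2. In IEG, Rps2 (0.47), Rpsa (0.42) and Rps27l (0.33) were the highest and Rps9 (-0.15) the lowest.

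PM, cells in division, showed the opposite for most members. There, 18 of 80 lay below HM in all 10 libraries (5.53% of all genes), with Rps27 (-0.48), Rps21 (-0.37), Rps14 (-0.36), Rpl10 (-0.35) and Rpl30 (-0.33) the lowest. Rps27l went the other way, with 185 to 425 CPM in PM against 124 to 154 CPM in HM and a log2 ratio of 0.87, and Rpsa (0.46) and Rps19 (0.33) followed. Within PM, Rps27 and its paralog Rps27l thus lay at opposite ends of the members.

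Outside microglia the share of the members was higher in nearly every cell type. Pooled over the libraries, it was 36.1% in ILC2, 33.7% in NKT cells, 32.5% in T cells, 27.7% in type 2 conventional dendritic cells (cDC2), 24.7% in NK cells, 23.2% in B cells, 20.6% in plasmacytoid dendritic cells (pDC), 19.6% in monocytes and 19.5% in border macrophages (BAM). Non-classical monocytes followed at 15.0% and Lyve1+ border macrophages at 12.3%, while types of fewer than 100 cells are left out of this order. The order of neighbours did not always hold within libraries, since NKT cells lay below T cells in 2 of 3 libraries with at least 20 cells of both and monocytes below border macrophages in 2 of 2. Of all types, microglia at 8.70% lay above only the neutrophils, whose 79 cells had a share of 4.84%. T cells, with at least 20 cells in 10 libraries, ranged from 25.6% to 36.1% (median 30.7%), border macrophages from 17.8% to 21.4% and microglia from 7.82% to 11.1%. These 3 ranges did not overlap. The cell types were named by the authors from the same counts, so no test was made. In the 11 other types of at least 100 cells, the microglial marker list was at 112 to 4827 CPM, against 25466 CPM in microglia. Carried-over RNA and a type's own expression of these genes cannot be told apart in these sums.

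**Figure D5:**
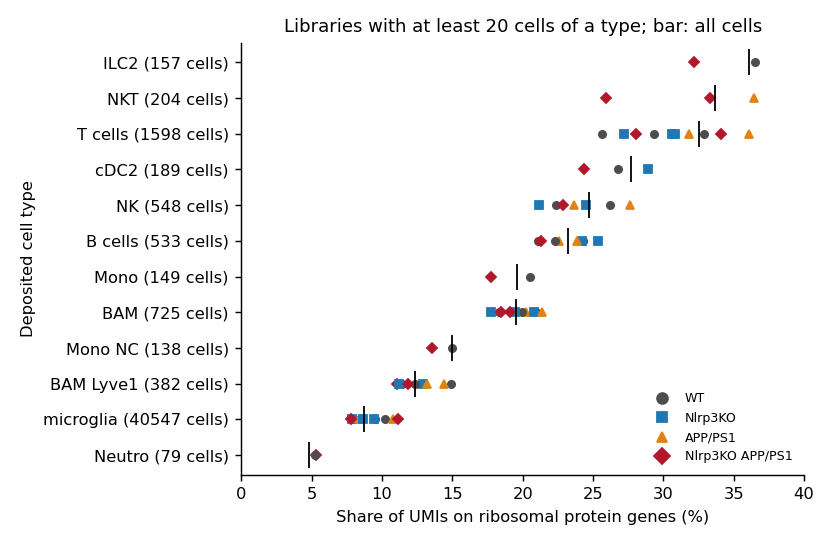
Percent of UMIs on the 83 ribosomal protein genes (horizontal axis, from 0) by deposited cell type (vertical axis, with the number of cells); bars pool all cells and points are libraries with at least 20 cells of the type. T cells reach 36.1% and microglia at most 11.1%.

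The makeup of the set also differed between types. Measured as a percent of the UMIs of all members, Rpl31 had the widest range, from 0.186% in NKT cells to 1.19% in pDC, a 6.36-fold range. This rests on the 102 pDC, since the other types lay between 0.186% and 0.340%, the value in microglia. Rpl7l1 ranged from 0.0192% in T cells to 0.117% in microglia, and over single libraries from 0.0157% to 0.0278% in T cells and from 0.0803% to 0.132% in microglia. As a share of all UMIs the gap was narrower, with Rpl7l1 at 62.5 CPM in T cells and 102 CPM in microglia. Rps27l ranged from 0.0505% in NKT cells to 0.211% in monocytes, Rpl10 from 0.685% in T cells to 1.90% in pDC and Rpl12 from 0.719% in non-classical monocytes to 1.99% in NKT cells. Over single libraries Rpl12 was at 1.70% to 2.13% in T cells and 1.03% to 1.42% in microglia, without overlap. Rplp1 took 4.03% of the member UMIs in microglia and 1.62% in monocytes, and Rps29 5.29% in Lyve1+ border macrophages and 1.99% in B cells.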

How the data were processed

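The authors deposited UMI counts per gene and cell, made with Cell Ranger (version not given in the sources used here) against mm10, without normalization, together with their cell type and state of each cell, the percent of mitochondrial UMIs, the fraction of ribosomal protein UMIs and a doublet score per cell. Of the deposited sample names, 2 (6897 cells) matched no sample description and were not used. Counts were summed over the cells of a library, state or type, since cells of 1 library are not replicates, and divided by all UMIs to give CPM and shares. For the tests, edgeR 4.0.16 in R 4.3.3 was run with filterByExpr as the filter on low counts, TMM scaling, quasi-likelihood F tests, pairs of libraries as blocks and Benjamini-Hochberg adjustment over all genes tested. Calls had an adjusted p under 0.05. The pairs were matched on age and genotype. Each library was 1 pool of littermates, and no genotype and age had a second pool. The p-values therefore measure how much a difference varied over pairs, which also differ in age or genotype. They measure neither the spread between pools of 1 condition nor a batch shared by all libraries of an age. Depth per library was 9357431 to 35107144 microglial UMIs. Shares and ratios were computed with Python 3.11.15, numpy 2.4.6 and pandas 2.3.3. Alternatives were DESeq2 1.42.0, other scalings, no pair block, HM only, removal of doublets (score over 0.5), of mitochondrial UMIs and of genes that share sequence, and leaving out each pair or library. Single states, cell types and the DAM comparisons were alternatives added after seeing the data. The edgeR fits for Nlrp3 loss, amyloid and age over all microglia were first tested on simulated data, drawn without differences between pairs. No such test was made for the differences between effects or for DESeq2. The members and lists were chosen with earlier results of these data known. Named were, by rule, the members with the largest called changes in each fit, the highest and lowest members by level and by state, the short members with copies, the stalk proteins, Rpsa, Rps6, the paralogs with their partners, and 5 members with the widest range over cell types. Rpl35, Rpl6, Rpl15, Rpl7a and Rpl4 in the age comparison, and all members named between Nlrp3 genotypes or in all microglia with amyloid, were chosen after their values were seen. Results of some genes are not reported here.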

Additional observations from a re-analysis of the deposited data

Results flagged for a closer look

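The effect of Nlrp3 loss on TM at 9 months differed from that at 3 and 6 months for Rps29 by 0.99, for Rpl38 by 0.62 and for Rps27 by 0.61 on the log2 scale, by a test of the difference itself (edgeR interaction term, adjusted p = 0.000218, 0.0437 and 0.0479). These genes also had their lowest level of all libraries in Nlrp3KO APP/PS1 microglia of 3 months, and the part of that library was not tested. Outside microglia, both Nlrp3KO libraries of 9 months were also the highest for Rps29, at 9165 and 9192 CPM in all other CD45+ cells. The effect of APP/PS1 in DAM was larger than that in HM for 78 of 81 members, by the same kind of test (5.34% of all genes). This comparison was added after values had been seen, and cells labelled DAM in non-diseased libraries held less of most DAM markers. With amyloid in DAM, 72 members were called in this annotation and 8 in that of all CD45+ cells. The effect of Nlrp3 loss at 9 months differed from that at 3 and 6 months by 4.21 for Gm10076, a gene model that shares its coding bases with Rpl41 (adjusted p = 0.000888, edgeR).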

How the results depend on the processing

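Of 567 alternative values of single genes, 529 kept their direction and their side of the threshold, 23 lost the call, 9 gained it and 6 reversed. HM was the only single state among them for age, and ranges cover the omission of 1 pair. Reversed were Rps29 for Nlrp3 loss without the APP/PS1 pair of 3 months (0.0835, range -0.30 to 0.0835), Rpl7l1 with age without the WT pair (-0.0035, range -0.0035 to 0.081), Rpl39l with age without the WT pair (-0.11) or the APP/PS1 pair (-0.014, range -0.11 to 0.14), Rpl15 with age in HM (-0.022), and Rpl7l1 with amyloid in the DAM of the annotation of all CD45+ cells (-0.20), none of them called. Rpl7a with age, at 0.11 in all microglia, was called lower in DAM alone (-0.61). Of 227 alternatives to the counts and shares, 206 stayed close to the reported value. For Nlrp3 loss and for its difference between ages, DESeq2 called 1 member each, and TM alone 3 for the latter. With amyloid, DAM alone gave 72 calls, and the DAM of the annotation of all CD45+ cells 8. With age, 4 members also passed an absolute log2 fold change over 1, and TM gave 33 calls, IEG 38, PM 14, DAM 17 (15 higher and 2 lower), T cells 31 and border macrophages 14. Leaving out 1 pair gave 26 to 61 calls with age, the fewest without the APP/PS1 pair, and 25 to 75 with amyloid in DAM, with 25 without the WT pair of 3 months, 44 without the Nlrp3KO pair of 3 months and 42 without the Nlrp3KO pair of 9 months. No share of all genes called is given for these omissions or for DESeq2. None is given for the limit on the fold change or for the fits without the pair block. Without the pair block, 0 members were called for Nlrp3 loss, 0 for amyloid, 67 for age and 73 for amyloid in DAM, so the block changed these counts by less than 1.5 times. Without genes that share sequence, the share differed by 0.804 percentage points between 9 and 3 months and by 1.69 for TM, 0.302 for IRM and 1.10 for DAM against HM, because fewer genes were summed, and without mitochondrial UMIs TM lay above HM by 5.37. Where not stated, the cause was not tested. Each genotype and age had 1 library, DAM held few cells, and reads of genes that share sequence cannot be split between copies.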
